A study of Bos taurus with 6 samples.

Results

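The mRNA 3′ end cleavage factors are the protein complexes that cut a nascent transcript and prepare it for its poly(A) tail. The genes sought were CPSF3 and 8 partners, CPSF1, CPSF2, CPSF4, CPSF6, CSTF1, CSTF2, CSTF3 and NUDT21. They were found by their symbol in the annotation of the Affymetrix GeneChip Bovine Genome Array, which gives them the gene identifiers 281712 (CPSF3), 282703 (CPSF1), 327689 (CPSF2), 280875 (CPSF4), 768231 (CPSF6), 282588 (CSTF2) and 508491 (CSTF3). Of these 9 genes, 7 had a probe set, and together they had 9 of the 24016 probe sets tested. CSTF1 and NUDT21 had no probe set under their symbols and were not analysed here. CPSF3 was chosen by the large difference of its signal between the groups on these same arrays, so its values are a description. The partners were named for working with CPSF3, and the question was whether they followed it.

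The study profiled day 7 bovine blastocysts on 6 arrays, 1 biotin-labelled RNA sample each. The 3 superovulated arrays held blastocysts that stayed until day 7 in the reproductive tract of superovulated, inseminated Simmental heifers. The 3 synchronized arrays held embryos from superovulated, inseminated donors too, but these were flushed on day 2 at the 2-cell stage and transferred endoscopically to recipients given synchronization alone. All embryos thus came from superovulated donors, and the groups differ in handling as well as in the tract that held the embryo. The number of embryos per array and whether arrays came from separate animals are not given in the sources used here, so a p-value here reflects only how much these arrays vary, and that variation may be technical.

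Cleavage and polyadenylation end almost every protein-coding transcript. The cleavage and polyadenylation specificity factor (CPSF) recognises the poly(A) signal and, through CPSF3, cuts the RNA downstream of it. The cleavage stimulation factor (CstF) binds the GU-rich element beyond the cut, and cleavage factor I, made of NUDT21 with CPSF6 or CPSF7, binds upstream and influences which site is used. In oocytes and early embryos, studied most in frog and mouse, CPSF also takes part in lengthening the tails of stored maternal mRNAs in the cytoplasm.

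Signals are log2 values made by GCRMA, a method that subtracts a sequence-dependent background and compresses values near it. Most probe sets lie there, with array medians of 2.75 to 2.8, and a signal under log2 4 is called near background. Probe sets above log2 4 numbered 1457 to 1894 on the superovulated arrays and 973 to 1850 on the synchronized arrays. Differences are superovulated minus synchronized, group values are mean ± SD (n = 3 each), and adjusted p is from limma with Benjamini-Hochberg adjustment over all tested probe sets. The median difference over all tested probe sets was -0.02, but it was 0.59 over the 1406 that averaged above log2 4, so bright transcripts as a body read higher in the superovulated group. The hybridization controls, added to every sample, averaged 12.65 to 12.69 on the superovulated arrays and 12.91 to 13.54 on the synchronized arrays, a shift the other way. The part of these shifts in the results was not tested.

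Of the 8 probe sets of the CPSF3 partners, 1 passed an adjusted p of 0.05, a probe set of CPSF6 that rose, against 0.695% of all tested probe sets called higher and 0.716% called in either direction. Of the same 8, 6 differed by less than 0.1 log2 units, as did 15611 of all 24016 tested. Their median difference was -0.02, against -0.02 over all tested probe sets. Most partner probe sets gave little signal to compare: 3 of the 8 exceeded log2 4 on any array and 0 had a mean above it, so a change in the others may not have been readable. The gap between CPSF3 and its partners was not tested, since CPSF3 was chosen for the size of its difference.

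**Figure D1:**
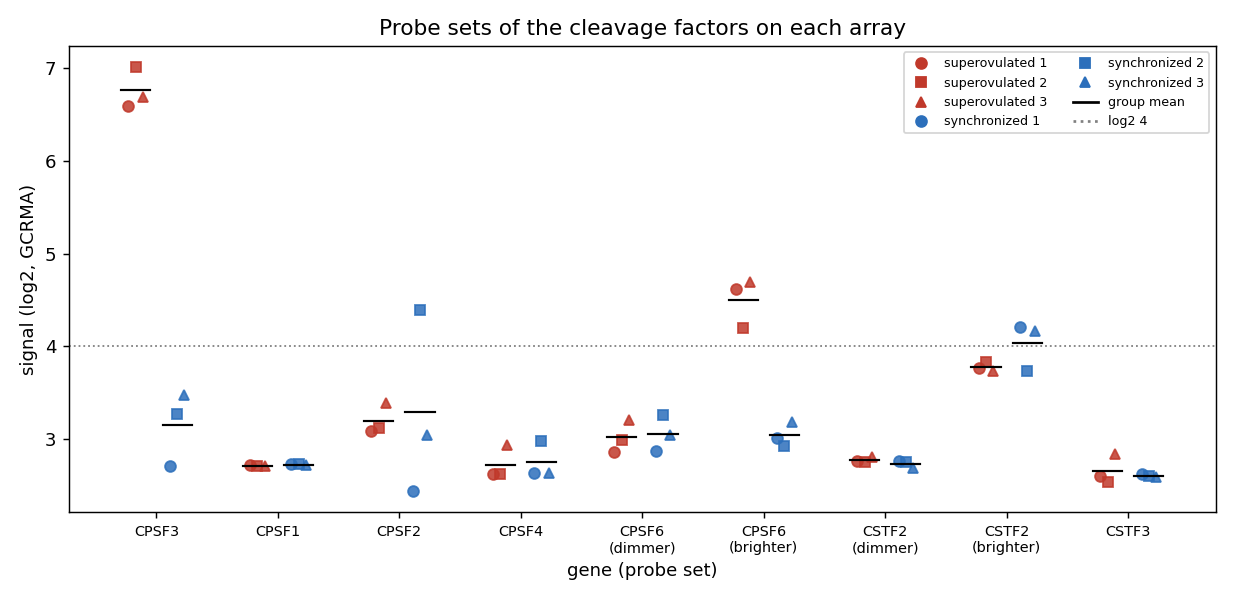
Signal (log2, GCRMA) of the 9 probe sets of the cleavage factors on each of the 6 arrays, superovulated in red on the left and synchronized in blue on the right of each pair, with symbols for replicates 1 to 3, group means as bars and log2 4 as a dotted line. CPSF3 and the brighter CPSF6 probe set separate the groups, and CPSF2 has its highest value, 4.39, on synchronized array 2.

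CPSF3 is the endonuclease of the complex and also cuts replication-dependent histone mRNAs. Its single probe set read 6.59, 7.01 and 6.69 on superovulated arrays 1 to 3, against 2.71, 3.27 and 3.48 on synchronized arrays 1 to 3. All superovulated arrays were well above all synchronized arrays, which were near background throughout. CPSF3 averaged 6.76 ± 0.22 in the superovulated group and 3.15 ± 0.40 in the synchronized group, a difference of 3.61 log2 units. Because the synchronized values lie where GCRMA compresses signals, the size of this difference is uncertain. In these bulk samples, fewer cells that carry a transcript and less of it per cell cannot be told apart.

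The other CPSF subunits on the array are CPSF1, the large scaffold subunit, CPSF2, a relative of CPSF3 without its catalytic activity, and CPSF4, a zinc finger protein that contacts the poly(A) signal. CPSF1 read 2.72, 2.71 and 2.71 on superovulated arrays 1 to 3, against 2.73, 2.73 and 2.72 on synchronized arrays 1 to 3. Its probe set was at background on all 6 arrays, and the difference of -0.01 (95% interval -0.05 to 0.03) says nothing about transcript below that level.

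CPSF2 read 3.09, 3.12 and 3.39 on superovulated arrays 1 to 3, against 2.44, 4.39 and 3.05 on synchronized arrays 1 to 3. The synchronized arrays held both the highest and the lowest value, so the groups overlapped fully. The range within the synchronized group was 1.95, against 0.30 within the superovulated group and a group difference of -0.09 (95% interval -1.44 to 1.26, adjusted p = 0.913). Without synchronized array 2 the difference was 0.46 in the opposite direction and did not pass (adjusted p = 0.372; range over all alternatives 0.109 to 0.992). The CPSF2 interval therefore leaves room for a change of about 1 log2 unit either way.

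CPSF4 read 2.62, 2.62 and 2.94 on superovulated arrays 1 to 3, against 2.64, 2.98 and 2.64 on synchronized arrays 1 to 3. A single array in each group stood above the others, and the groups overlapped. The difference was -0.03 (95% interval -0.39 to 0.34, adjusted p = 0.909), near background in both groups.

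CPSF6, the larger subunit of cleavage factor I and an RS-domain protein of nuclear paraspeckles, had a pair of probe sets that disagreed. The one with the higher mean over the 6 arrays, called the brighter as a name only, read 4.62, 4.20 and 4.69 on superovulated arrays 1 to 3, against 3.01, 2.93 and 3.19 on synchronized arrays 1 to 3. All superovulated arrays lay above all synchronized arrays, as in 5.42% of all tested probe sets. It averaged 4.50 ± 0.27 in the superovulated group and 3.04 ± 0.13 in the synchronized group. The rise of 1.46 (95% interval 1.06 to 1.86, adjusted p = 0.0426) was 2.75-fold, with the synchronized arrays near background.

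The dimmer CPSF6 probe set read 2.86, 2.99 and 3.21 on superovulated arrays 1 to 3, against 2.87, 3.26 and 3.04 on synchronized arrays 1 to 3. The groups overlapped, with a difference of -0.04 (95% interval -0.39 to 0.32, adjusted p = 0.874). The CPSF6 call thus rests on 1 of 2 probe sets, and it was also narrow. With any 1 of the 6 arrays left out it no longer passed, with adjusted p between 0.0514 without superovulated array 2 and 0.137 without synchronized array 1, although the difference stayed between 1.37 and 1.61. With each array centred on its bright probe sets, the CPSF6 difference was 0.84 (adjusted p = 0.109; range over all alternatives 0.0482 to 0.283). Under that centring the median of all tested probe sets was -0.65.

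**Figure D2:**
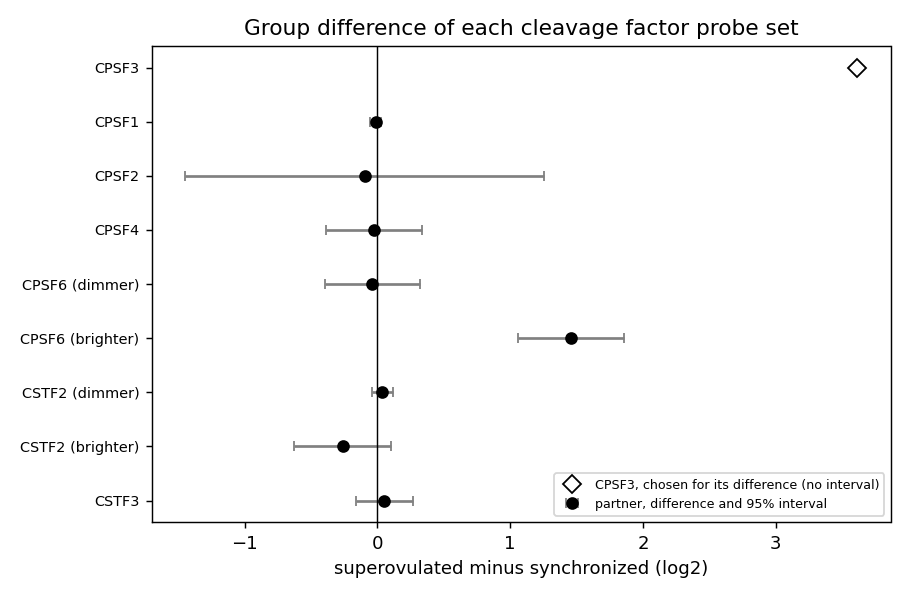
Difference in log2 signal, superovulated minus synchronized, for each cleavage factor probe set, with 95% limma intervals for the 8 partner probe sets and CPSF3 as an open diamond without one. The brighter CPSF6 probe set, at 1.46, is the partner whose interval lies away from 0, and the narrowest intervals belong to probe sets near background.

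The CstF subunits on the array are CSTF2, which binds the downstream element, and CSTF3, the scaffold that links the CstF subunits to one another and to CPSF. CSTF2 had a pair of probe sets. The brighter read 3.77, 3.83 and 3.73 on superovulated arrays 1 to 3, against 4.21, 3.73 and 4.17 on synchronized arrays 1 to 3. Synchronized arrays 1 and 3 were above every superovulated array, while synchronized array 2 matched the lowest of them. The difference was -0.26 (95% interval -0.62 to 0.10) and did not pass (adjusted p = 0.636; range over all alternatives 0.0609, without synchronized array 2, to 0.885). This CSTF2 difference was -0.41 without synchronized array 2, -0.59 after a second quantile normalization and -0.88 with centring on bright probe sets. That centring moved the median of all tested probe sets to -0.645, so the last value includes this shift. The probe set read under log2 4 on every superovulated array and on synchronized array 2.

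The dimmer CSTF2 probe set stayed between 2.75 and 2.81 on the superovulated arrays and between 2.69 and 2.77 on the synchronized arrays, with a difference of 0.04 (95% interval -0.04 to 0.12). CSTF3 read 2.60, 2.54 and 2.84 on superovulated arrays 1 to 3, against 2.63, 2.60 and 2.59 on synchronized arrays 1 to 3. Both were near background on every array, and the CSTF3 difference was 0.05 (95% interval -0.16 to 0.27, adjusted p = 0.729). The signs of these small CSTF2 and CSTF3 differences turned when arrays were centred on their bright probe sets, to -0.59 and -0.57.

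A pattern other than the group was visible in several partners, and it was noticed after their values were seen. CPSF2, CPSF4 and the dimmer CPSF6 probe set had their highest values on superovulated array 3 and synchronized array 2. These 3 are 37.5% of the 8 partner probe sets, against 6.89% of all tested probe sets and 28.4% of those with a mean above log2 4. A few transcripts used as oocyte or cumulus markers, KPNA7, TNFAIP6 and PTX3, were also highest on these arrays. Which cells they came from in these samples was not tested. No list of oocyte transcripts was examined, and KPNA7 was picked to show beside this pattern. KPNA7, which carries proteins into the nucleus in oocytes, read 5.94, 5.98 and 7.78 on superovulated arrays 1 to 3, against 4.04, 9.02 and 6.11 on synchronized arrays 1 to 3. TNFAIP6, of the cumulus matrix, read 3.05, 2.99 and 7.38 on superovulated arrays 1 to 3, against 4.25, 8.47 and 5.96 on synchronized arrays 1 to 3. The other TNFAIP6 probe set was flat near background, between 2.39 and 2.43 on all 6 arrays. PTX3, also of the cumulus matrix, read 2.99, 2.94 and 3.87 on superovulated arrays 1 to 3, against 3.01, 5.21 and 3.52 on synchronized arrays 1 to 3. The other markers of the cumulus and granulosa list, HAS2, CYP19A1, COL1A2 and AMH, did not share the pattern, and 1 of 2 COL1A2 probe sets rose by 0.66 (adjusted p = 0.0316) near background. All 6 markers of that list were measured and 1 had a mean above log2 4. The summed log2 level of that list was 19.1 to 23.9 on the superovulated arrays and 19.5 to 25.6 on the synchronized arrays. The part of these transcripts in the partner values was not tested. CPSF3 did not share the pattern: its value was highest on superovulated array 2 and, within the synchronized group, on array 3.

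The genes whose profile over the 6 arrays lay nearest to that of CPSF3 were AGPAT5, NAA40, HSPA14, HSPE1 and KRT18. Nearness was the root mean square distance between log2 values, each centred on its probe set's own mean, over the 924 genes with 1 symbol and a mean above log2 4. The distance to CPSF3 was 0.26 for AGPAT5, an acyltransferase of phosphatidic acid synthesis, 0.28 for NAA40, an N-terminal acetyltransferase of histones, and 0.32 for HSPA14, a ribosome-associated chaperone. It was 0.33 for HSPE1, the mitochondrial cochaperonin, and 0.34 for KRT18, a keratin of the trophectoderm. None of these is a cleavage factor. The nearest partner, the brighter CPSF6 probe set, lay at 1.13, and the other partner probe sets lay between 1.80 and 1.96. Since CPSF3 is almost flat within each group, nearness to it mostly selects genes with a group difference of similar size.

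**Figure D3:**
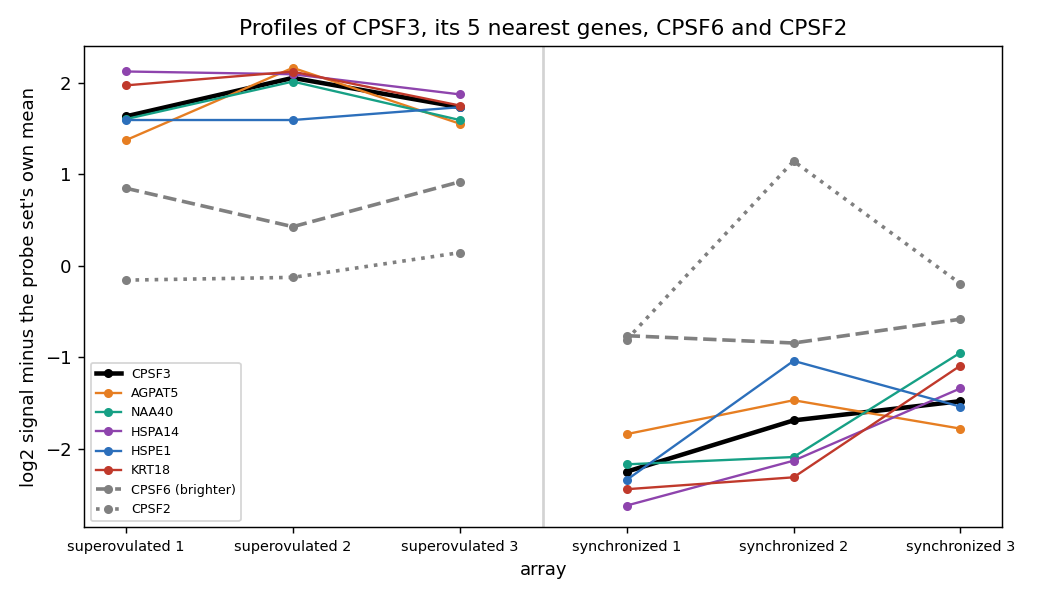
Log2 signal on each array minus the probe set's own mean over the 6 arrays, for CPSF3 (thick black), its 5 nearest genes (coloured), the brighter CPSF6 probe set (dashed) and CPSF2 (dotted). The coloured lines run beside CPSF3, CPSF6 has a smaller step, and CPSF2 is highest on synchronized array 2.

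KRT18 and the blastocyst label were read together. KRT18 read 7.96, 8.11 and 7.74 on superovulated arrays 1 to 3, against 3.55, 3.68 and 4.90 on synchronized arrays 1 to 3. As 1 of the 5 genes picked for nearness to CPSF3, KRT18 was bound to move with it. Of the 8 trophectoderm markers listed, 3 were measured: KRT18 rose by 3.89, 1 of 2 probe sets of the endocytic adaptor DAB2 rose by 2.21, and KRT8 was at background in both groups. The summed log2 level of these 3 was 14.9 to 15.4 on the superovulated arrays and 8.16 to 10.3 on the synchronized arrays. KRT8 averaged 2.28 in the superovulated group and 2.29 in the synchronized group, so KRT18 and DAB2 make up that gap. KRT18 was picked for likeness to CPSF3 and DAB2 is also used as a primitive endoderm gene, so the sum is no measure of trophectoderm. The part of these genes in the CPSF3 difference was not tested. Of the inner cell mass markers, SOX2 was at background and POU5F1 averaged 3.40 in the superovulated group and 2.59 in the synchronized group. CDX2, GATA3, GATA2, TFAP2C, IFNT and NANOG had no probe set under their symbols. Of the measured oviduct (2) and blood (4) markers, 0 had a mean above log2 4.

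No further gene of cleavage and polyadenylation passed. Of 16 listed, 13 were measured, and by limma 0 rose and 0 fell at an adjusted p of 0.05. In the same fit 3 had an unadjusted p under 0.05, as did 6.65% of all tested probe sets. Among the 1406 that averaged above log2 4, where 6 of these 13 genes lie, 600 did. The list median was 0.04. RBBP6, a ubiquitin ligase that binds the cleavage machinery, read 4.62, 4.33 and 4.35 on superovulated arrays 1 to 3, against 3.74, 3.61 and 3.66 on synchronized arrays 1 to 3. The groups did not overlap, as in 13.3% of all tested probe sets. RBBP6 averaged above log2 4, where the groups did not overlap in 654 of 1406 probe sets. The RBBP6 difference of 0.76 narrowly missed (adjusted p = 0.0545). It passed without superovulated array 1 (adjusted p = 0.0494; range over all alternatives 0.0334 to 0.751).

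WDR82, which joins histone methyltransferase and termination complexes to RNA polymerase II, read 5.50, 6.06 and 5.30 on superovulated arrays 1 to 3, against 3.19, 3.91 and 4.53 on synchronized arrays 1 to 3. WDR82 also averaged above log2 4, and its groups were apart too. The interval was wide, 0.70 to 2.78, around a WDR82 difference of 1.74 (adjusted p = 0.289). PAPOLA, the main nuclear poly(A) polymerase, averaged 3.99 ± 0.11 in the superovulated group and 3.57 ± 0.04 in the synchronized group (difference 0.41, adjusted p = 0.0914). PABPC1, the cytoplasmic poly(A)-binding protein, differed by 1.07 (95% interval -0.36 to 2.5, adjusted p = 0.636). A further PABPC1 probe set, again above log2 4 on average, differed by 1.13 with no overlap between the groups. It also did not pass (adjusted p = 0.636), while the remaining PABPC1 probe sets differed by -0.10 and -0.16. The other probe sets of RBBP6, WDR82 and PAPOLA differed by 0.22, -0.16 and -0.01 in that order of genes.

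FIP1L1, a CPSF subunit that recruits poly(A) polymerase, was named after its values were seen because its signal was well above background. It read 6.01, 5.56 and 5.44 on superovulated arrays 1 to 3, against 5.57, 5.56 and 5.59 on synchronized arrays 1 to 3. The superovulated values lay on both sides of the narrow synchronized range. The FIP1L1 difference was 0.10 (95% interval -0.31 to 0.50, adjusted p = 0.736), and the signal was readable on all 6 arrays. Its other probe sets differed by 0.45 and -0.33, and neither passed.

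**Figure D4:**
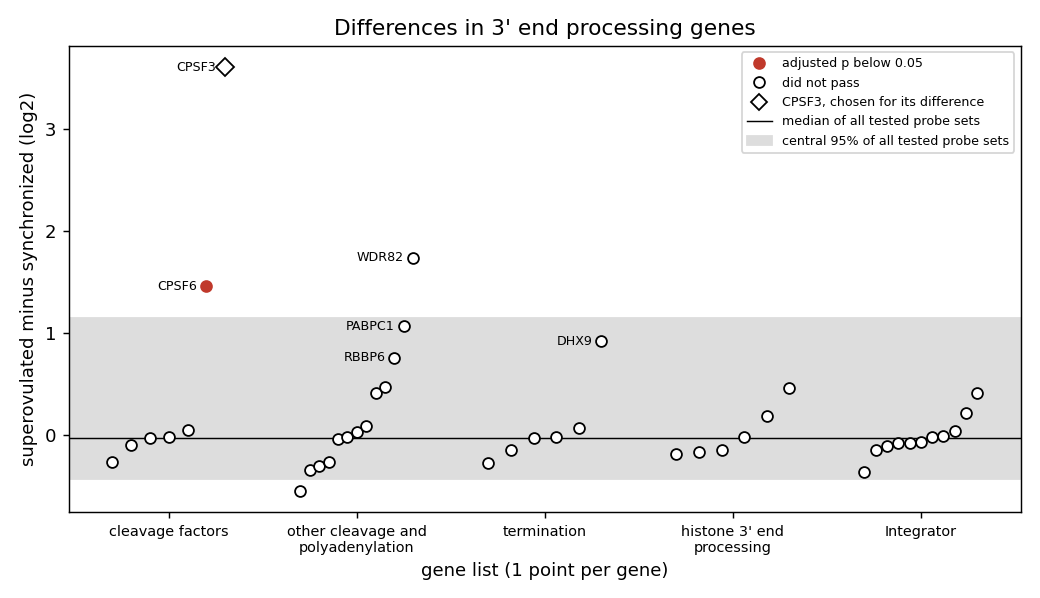
Difference in log2 signal, superovulated minus synchronized, with 1 point per gene (its probe set with the highest mean), for the cleavage factors and 4 related lists. The grey band holds the central 95% of all tested probe sets, -0.43 to 1.15, the line is their median, the filled point passed an adjusted p of 0.05 and the diamond is CPSF3. CPSF3, CPSF6 and WDR82 lie above the band and WDR33, at -0.55, below it.

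Termination, the release of RNA polymerase II after the cut, gave 0 rises and 0 falls by limma among 6 measured genes of 10 listed. The list median was -0.02. In the same fit 1 had an unadjusted p under 0.05, as did 6.65% of all tested probe sets and 600 of the 1406 that averaged above log2 4. DHX9, an RNA helicase, read 4.29, 4.80 and 4.90 on superovulated arrays 1 to 3, against 3.74, 3.93 and 3.55 on synchronized arrays 1 to 3. Its groups did not overlap, as in 654 of the 1406 probe sets that averaged above log2 4, which include DHX9. The DHX9 difference of 0.92 did not pass (adjusted p = 0.233). The other DHX9 probe set was near background on all 6 arrays and differed by -0.04. XRN2, the exonuclease that degrades the RNA downstream of the cut, differed by -0.27 (adjusted p = 0.636), and its other probe sets by -0.07 and 0.003. TTF2, an ATPase that dislodges the polymerase, differed by -0.14, and RPRD1B, which binds the polymerase tail, by -0.03.

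Histone mRNAs end without a poly(A) tail but are cut by the same endonuclease, guided by the U7 particle. Of 12 genes listed for this reaction, 6 were measured, and by limma 0 rose and 0 fell, with 0 at an unadjusted p under 0.05 and a list median of -0.08. SNRPB, an Sm core protein shared with the spliceosome, differed by 0.46, ERI1, an exonuclease acting on histone mRNA, by -0.18, the U7 protein LSM10 by -0.14 and the Sm protein SNRPG by 0.19. The other ERI1 probe set differed by 0.02. SLBP, the stem-loop binding protein, was named once its values were known and read 2.62, 2.69 and 3.70 on superovulated arrays 1 to 3, against 2.63, 4.21 and 2.67 on synchronized arrays 1 to 3. SLBP thus was highest on the same arrays as CPSF2 and CPSF4.

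Integrator, which cleaves small nuclear and other non-coding transcripts, holds the closest relatives of CPSF3 and CPSF2. Of 14 genes listed, 11 were measured, all with means under log2 4. By limma 0 rose and 0 fell, and the list median was -0.07. In the same fit 3 had an unadjusted p under 0.05, as did 6.65% of all tested probe sets. These 3 were the subunit genes INTS7 (0.42, adjusted p = 0.492), INTS8 (-0.07, adjusted p = 0.490) and INTS14 (-0.10, adjusted p = 0.524). The other INTS8 probe sets differed by -0.06 and 0.05. INTS5, the fourth named by p, differed by -0.07. INTS11 and INTS9 were named for their kinship after their values were seen. INTS11, the endonuclease related to CPSF3, read 2.61, 3.27 and 2.58 on superovulated arrays 1 to 3, against 2.59, 2.59 and 2.61 on synchronized arrays 1 to 3. Only superovulated array 2 was above the rest, and the INTS11 difference was 0.22 (95% interval -0.30 to 0.75, adjusted p = 0.636). INTS9, related to CPSF2, differed by -0.07 (95% interval -0.47 to 0.33). The median of each of these 4 lists lay between -0.70 and -0.59 after centring on bright probe sets, close to the shift of all tested probe sets.

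Where a probe set lies along the transcript affects what it can read in amplified RNA. The array carries control probe sets for the 5′, middle and 3′ parts of some transcripts, which were not among those tested. For GAPDH the 3′ part averaged 8.87 in the superovulated group and 7.92 in the synchronized group, whereas the 5′ part averaged 2.76 in the superovulated group and 2.62 in the synchronized group. For EIF4E, the cap-binding initiation factor, the 3′ part read 8.16, 8.52 and 8.31 on superovulated arrays 1 to 3, against 3.71, 6.23 and 5.92 on synchronized arrays 1 to 3. Its 5′ part stayed near background, at 3.02 to 3.08 on the superovulated arrays and 3.08 to 3.49 on the synchronized arrays. The EIF4E difference was therefore 3.04 on the 3′ part and -0.18 on the 5′ part of the same transcript. Where the probe sets of the cleavage factors lie along their transcripts was not analysed here, and its part in the near-background values of CPSF1, CPSF4, CSTF3 and others was not tested.

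**Figure D5:**
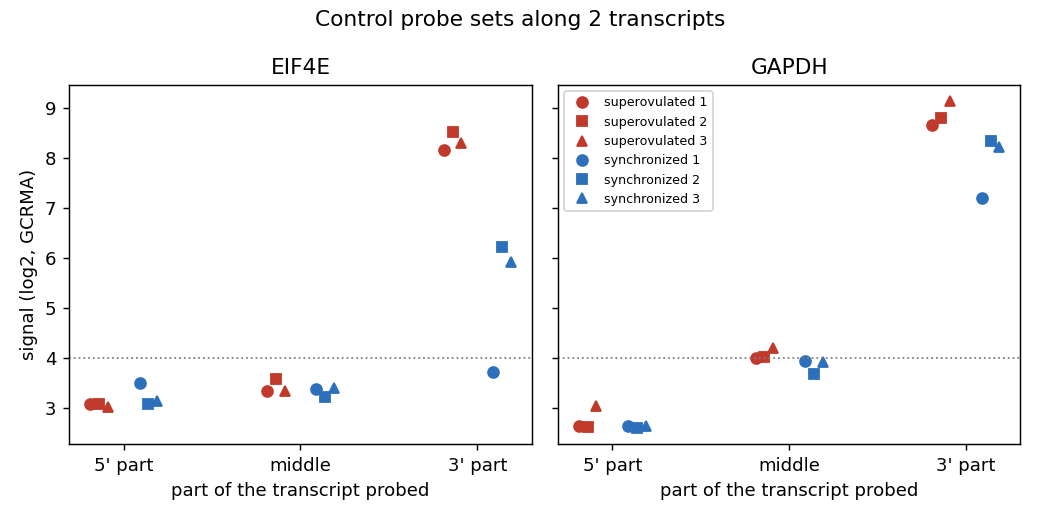
Signal (log2, GCRMA) of control probe sets for the 5′ part, the middle and the 3′ part of EIF4E and GAPDH on each array, superovulated in red on the left and synchronized in blue on the right, with log2 4 as a dotted line. The 3′ parts carry the signal, and the EIF4E 3′ part separates the groups while its 5′ part does not rise above 3.49.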

How the data were processed

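The authors deposited 1 log2 expression value per probe set and array, made with GCRMA per the submitters' processing notes; its version and whether the 6 arrays were normalized together are not given in the sources used here. The table held 24128 probe sets; 112 Affymetrix controls were set aside and 24016 tested. Symbols came from the platform annotation held by GEO: 13292 tested probe sets had 1 symbol, 86 several and 10638 none. Values were used as deposited in limma 3.58.1 (R 4.3.3; eBayes after lmFit, with group and no other term, two-sided), with Benjamini-Hochberg adjustment over all tested probe sets and 95% intervals from the same fit. The fit was also run on simulated data. The simulated noise was independent between probe sets and arrays, without deviations shared across an array, so that run is no support for the calls. The precision is limited by 3 arrays per group.

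The members and lists were chosen with earlier results of these data known. In lists, the probe set of highest mean stands for a gene. Every member probe set is given; in each of the 4 lists, genes that passed and up to 4 with the smallest p are named, others being marked as chosen after their values were seen, and the 5 genes nearest to CPSF3 are named. Alternatives were further scaling, a filter on dim probe sets, an intensity trend, a replicate block and leaving out arrays. Figures were drawn with matplotlib 3.10.9.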

Additional observations from a re-analysis of the deposited data

How the results depend on the processing

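Over all tested probe sets 172 passed (167 higher). The count was 28 (27 higher) after a second quantile normalization, 647 (281 higher) with arrays centred on bright probe sets, 441 (413 higher) among bright probe sets alone, 50 with an intensity trend, 1 without both superovulated array 3 and synchronized array 2 (chosen after seeing the data), and 26 to 137 with 1 array left out, 26 without superovulated array 2; without synchronized array 2, 96 of 137 were higher. The replicate numbers showed no common pairing: same-numbered deviations correlated at 0.54, -0.40 and -0.41, and those of superovulated array 3 and synchronized array 2 at 0.69. Deviations within a group cancel out, so these correlations depend on one another and cannot settle whether arrays were paired. With the replicate block 0 passed in limma, against 1382 at an unadjusted p under 0.05.

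Of the 9 cleavage factor probe sets 2 passed, counting CPSF3. The count was 1, that of CPSF3, with centring on bright probe sets, among bright probe sets alone or with an intensity trend. CPSF3 is the only member among the bright probe sets. It reaches that filter through the superovulated group alone, so this pass is no support. The count was 0 (2 or more at an unadjusted p under 0.05) after quantile normalization, with the block or without both arrays. With 1 array left out it was 0 to 1. For partners alone it was 0 (1 to 3 at an unadjusted p under 0.05) in each of these where a value could be had, and 0 with any 1 array left out; no partner was among the bright probe sets. The partner median moved to -0.64 with centring on bright probe sets and was -0.08 to 0.06 with 1 array left out.

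CPSF3 was chosen for its difference on these arrays, so whether its row passes is a description and no support. The CPSF3 difference did not pass at 3.15 after quantile normalization (adjusted p = 0.0512), 3.61 with the block (0.114) or 3.71 without both arrays (0.203). With 1 array left out it was 3.39 to 3.77. It passed without synchronized array 1 (3.39) or 2 (3.67), but not without superovulated array 1 (3.70), 2 (3.49) or 3 (3.65) or synchronized array 3 (3.77). Over all alternatives for CPSF3, limma adjusted p lay between 5.66e-14, with centring on bright probe sets, and 0.203, without both arrays. Under that centring 6813 of all tested probe sets had an unadjusted p under 0.05. The brighter CPSF6 probe set passed again when centred on all probe sets. It did not pass at 1.34 after quantile normalization, 0.84 with centring on bright probe sets, 1.46 with an intensity trend or the block, 1.31 without both arrays, or 1.37 to 1.61 with 1 array left out.

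Small partner differences turned sign without passing: CPSF1 to 0.011 after quantile normalization and 0.01 after median centring; CPSF2 to 0.012 after quantile normalization, 0.46 without synchronized array 2 and 0.36 without both arrays; the dimmer CSTF2 probe set to -0.59 and CSTF3 to -0.57 with centring on bright probe sets; CSTF3 also to -0.037 without superovulated array 3 and -0.04 without both. CPSF4 read 0.027 without superovulated array 1 or 2 and 0.087 without synchronized array 2. The dimmer CPSF6 probe set read 0.043 without superovulated array 1 and 0.065 without synchronized array 2. With 1 array left out the ranges were -0.017 to -0.012 (CPSF1), -0.52 to 0.46 (CPSF2), -0.13 to 0.087 (CPSF4), -0.13 to 0.065 (the dimmer CPSF6), 0.013 to 0.053 and -0.41 to -0.17 (the dimmer and brighter CSTF2) and -0.037 to 0.11 (CSTF3).

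In the list of further cleavage and polyadenylation genes 1 passed with centring on bright probe sets (WDR33, lower, named after its values were seen), 2 among bright probe sets alone (RBBP6 and WDR82, adjusted p = 0.0334 and 0.0261), and 0 to 1 with 1 array left out (RBBP6). The WDR33 difference under that centring, -1.17, includes the shift of all tested probe sets, whose median was -0.645. As deposited, WDR33 exceeded log2 4 on synchronized array 1 alone (4.19), and its other probe sets differed by -0.02 and 0.01. In the termination list 1 passed among bright probe sets alone (DHX9, 0.0409). RBBP6, WDR82 and DHX9 reach that filter only through the superovulated group, so these passes are no support. The histone and Integrator lists had 0 in every alternative run (0 to 3 at an unadjusted p under 0.05). With centring on bright probe sets the list medians were -0.59, -0.64, -0.70 and -0.69, and among bright probe sets alone 0.43, 0.33 and 0.19, with no Integrator gene left. With 1 array left out they were -0.02 to 0.42, -0.05 to -0.006, -0.12 to 0.16 and -0.065 to -0.0067. Except where centring or the choice of probe sets itself sets the value, the cause was not tested.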
